A study of Mus musculus with 3 samples.

Results

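Transcripts of 6 nuclear receptor genes were examined in mouse fetal ovarian somatic cells (FOSCs): Nr2f1 and Nr2f2, which encode the chicken ovalbumin upstream promoter transcription factors (COUP-TFs) I and II, Esr1 and Esr2, which encode estrogen receptors alpha and beta, Pgr, the progesterone receptor, and Nr3c1, the glucocorticoid receptor. The genes were chosen by name, as 6 of the 18738 genes listed in the count tables, and all 6 had counts in every lot. FOSCs are the somatic cells of the E12.5 ovary of wild-type CD1 mice. For each lot, the ovaries of embryos from 10 pregnant mice were freed of the mesonephros by dissection, dissociated and pooled, depleted with magnetic beads against SSEA1 (germ cells) and CD31 (endothelial cells), and frozen. Lots 26, 29 and 30 were profiled by droplet single-cell RNA-seq (10X Genomics) on thaw. With 1 condition and 3 lots, the lots are the only replicates, so cell classes were compared across lots and no lots were compared with each other. Animals within a lot were pooled and cannot be told apart.

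Nuclear receptors are transcription factors with a zinc-finger DNA-binding domain and a ligand-binding domain. The steroid receptors ESR1, ESR2, PGR and NR3C1 are held by HSP90-based chaperones until a steroid binds, and then act on DNA as dimers with coactivators. The COUP-TFs are orphan members, with no established natural ligand, that bind direct repeats of a hexamer half-site and are known as regulators of mesenchyme, vein identity and neural development. NR2F2 is widely used as a marker of gonadal interstitial and stromal cells. Estrogen receptor beta is best known from granulosa cells of the postnatal follicle, and progesterone receptor from granulosa cells at ovulation.

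The 3 tables held 87494974 to 141920060 unique molecular identifiers (UMIs, each marking 1 captured transcript) in 8567 to 10773 barcodes, and 28971 of 29103 barcodes were kept. Lot 29 was the shallowest, with a median of 8949 UMIs per kept cell against 11126 in lot 26 and 11595 in lot 30. At most 30 barcodes were shared by a pair of lots. The cells formed 20 clusters, which were named from marker lists after 87 genes, the 6 receptors and the related lists other than G2/M genes, had been held out of the variable genes. Only 17 of the 87 were among the 2000 variable genes, and of the 6 receptors only Nr2f1 and Nr2f2 were. Pre-granulosa-like cells (11992), stromal-like cells (6364) and epithelial-like cells (6091) made up most of the cells, beside 1471 germ-like, 418 steroidogenic-like, 392 Sertoli-like, 349 endothelial-like and 78 red-blood-cell-like cells. A cluster of 135 cells (cluster 17) scored highest on the macrophage list, with Tyrobp, C1qa and C1qb among its 10 leading genes, but S100a8, S100a9, Camp and Ngp, known as neutrophil genes, were also among them, so it is called by its number. All 8 markers of its own list were detected in each named class. The summed markers of the stromal list, for example, reached 2506 to 2947 CPM in stromal-like cells over the lots. Clusters 11 (818 cells, led by Lypd1, Pax8 and Rnase12), 12 (732 cells, led by Lars2, Gpr21 and Pla2r1) and 18 (131 cells, led by Chgb, Chga and Phox2a) stayed unnamed. Cells of unnamed cluster 12 had a median of 1680 to 2929.5 UMIs, far below those of every other class. This cluster scored highest on the pre-granulosa list (1.90, next list 1.44). It was left unnamed for its low depth, with no marker of that list among its 10 leading genes. Y-linked transcripts, from Ddx3y, Eif2s3y, Kdm5d and Uty, were found in 65.1% to 78.1% of steroidogenic-like cells and 75.2% to 93.8% of Sertoli-like cells over the lots, and in lot 29, where they were most frequent in the large classes, in 13.8% of stromal-like, 9.07% of epithelial-like and 0.805% of pre-granulosa-like cells. In lot 30 these shares were 1.47%, 0.444% and 0.0436%, and their part in the comparisons of these classes was not tested. The paper describes its Sertoli cells as contaminating and did not analyze them further. With Y-linked transcripts in most of their cells, levels of the steroidogenic-like and Sertoli-like classes cannot be read as those of ovarian cells.

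All 6 genes are protein-coding, and positions are those of GENCODE on GRCm38. Nr2f1 (ENSMUSG00000069171) lies on the minus strand of chromosome 13 from 78188973 to 78199757, and Nr2f2 (ENSMUSG00000030551) on the minus strand of chromosome 7 from 70351944 to 70366735. Esr1 (ENSMUSG00000019768) spans chromosome 10 from 4611593 to 5005614 on the plus strand, and Esr2 (ENSMUSG00000021055) chromosome 12 from 76120419 to 76177259 on the minus strand. Pgr (ENSMUSG00000031870) lies on the plus strand of chromosome 9 from 8899833 to 8968611. Antisense transcripts overlap Nr2f1 (A830082K12Rik) and Nr2f2 (B130024G19Rik), and a processed pseudogene (Gm7862) lies within Esr2. None of the 3 is listed in the count tables, and the strand setting of the counting is not given in the sources used here, so reads of these transcripts cannot be told apart from those of the receptor genes.

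RefSeq promoter windows (GRCm38.p6) were matched for 5 of the 6 genes, and the 250 bases before each of their 7 start sites were searched on both strands for the nuclear receptor half-site AGGTCA and for CCAAT, a common promoter element. No window held AGGTCA, which 14.0% of 32851 windows hold. CCAAT was present in 4 of the 7 windows, against 33.8% of all windows, and in neither window of Nr2f1. The stretches around it are shown because they set the promoter of Nr2f2 beside those of the steroid receptor genes Esr1, Esr2 and Pgr. They are written 5′ to 3′ on the strand of the gene, with CCAAT or its reverse complement in capitals, 162 bases before the start of Nr2f2 (chr7:70366891-70366920, minus), 49 before that of Esr1 (chr10:4611928-4611957, plus, within the gene as GENCODE annotates it), 186 before that of Esr2 (chr12:76177428-76177457, minus) and 67 before that of Pgr (chr9:8899754-8899783, plus).
Nr2f2: aaaatgaggattCCAATtgattcctaggaa
Esr1: ggagcagagtttCCAATcccagtcaagtgg
Esr2: catcgtcagtctATTGGaagcggggtgtcc
Pgr: atctagccagtgATTGGctagggaggggct

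Over all kept cells the genes differed widely in how often they were counted. Nr2f2 had 51826 UMIs, Nr2f1 8806, Nr3c1 7704, Esr1 3093, Esr2 343 and Pgr 339. Levels are given as CPM: the UMIs of a gene in all cells of a class, lot by lot, divided by every UMI of those cells and scaled to a total of 1000000. Since UMIs count molecules and not fragments, they were not divided by transcript length.

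**Figure D1:**
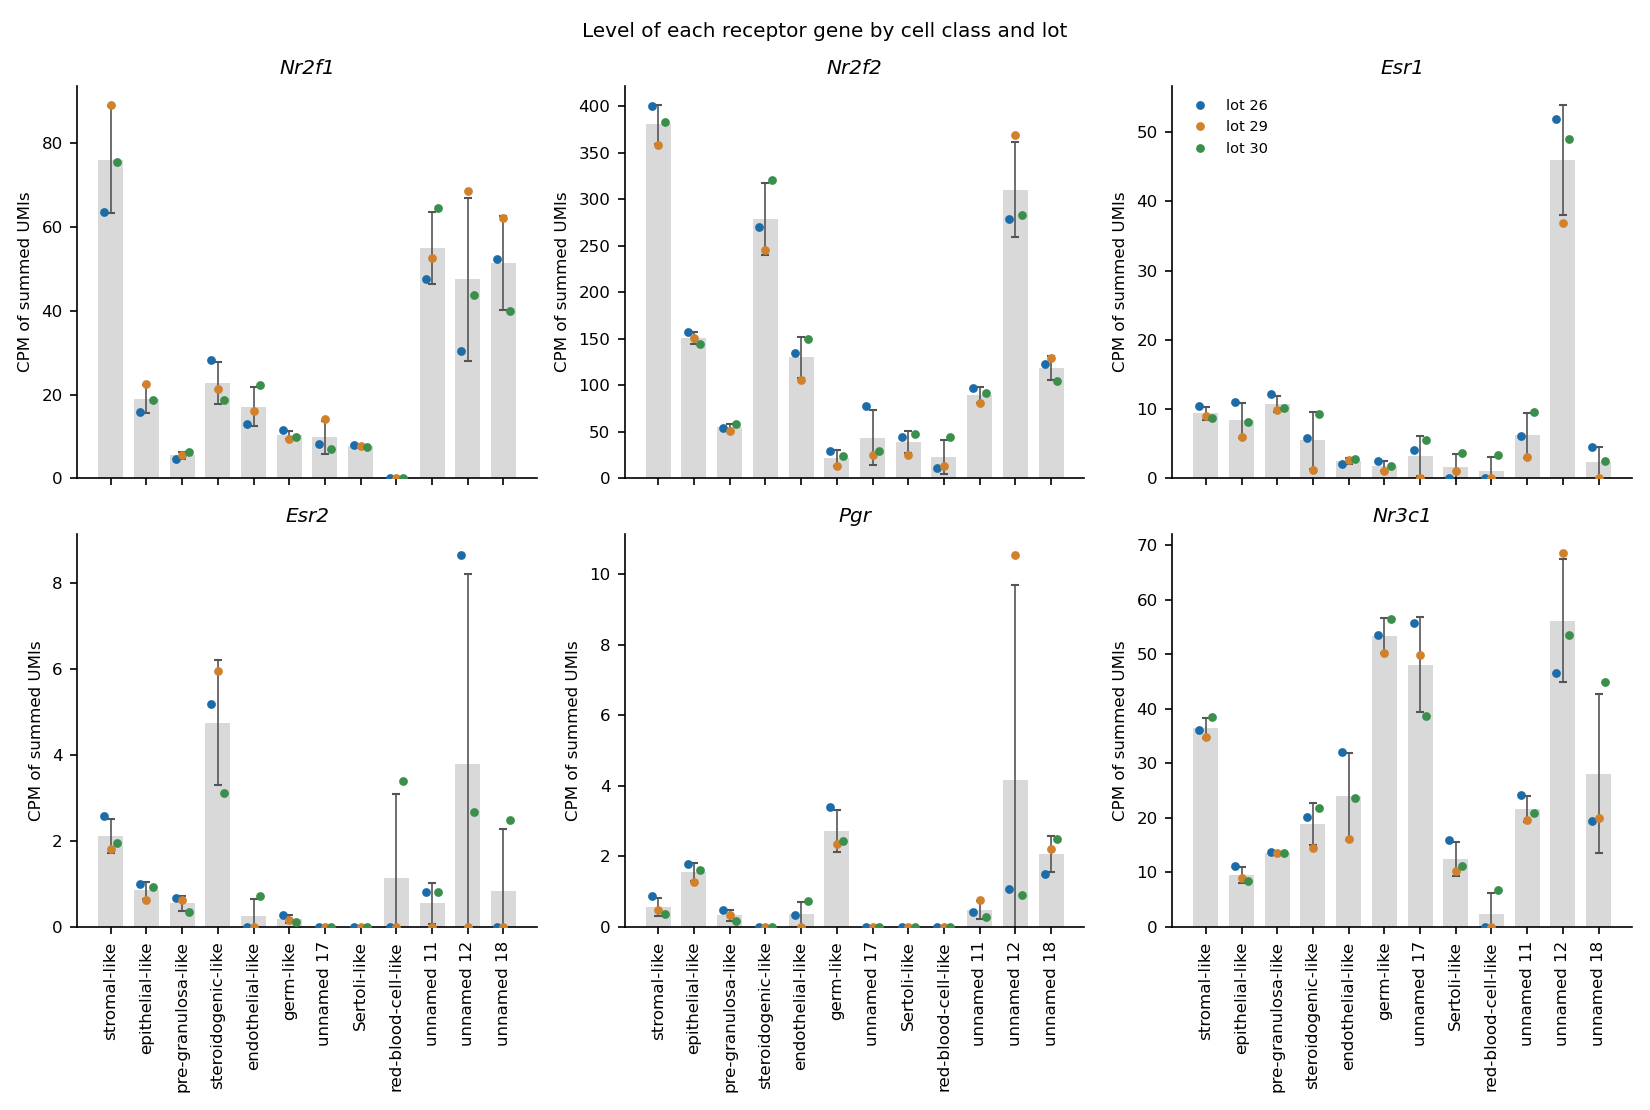
CPM of summed UMIs (linear y axes from 0, 1 panel per gene) in 12 classes, with 1 point per lot, bars for the mean over 3 lots and error bars for the SD. Nr2f2 and Nr2f1 are highest in stromal-like cells among the named classes, Nr3c1 in germ-like cells, Esr1 stands far above the rest in unnamed cluster 12, and Esr2 and Pgr stay below 11 CPM everywhere.

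Nr2f2, whose product is known for its role in interstitial and stromal lineages, was the most abundant of the 6 genes. In stromal-like cells it was at 400.3, 358.6 and 383.0 CPM in lots 26, 29 and 30 (381 ± 20.9, mean ± SD over 3 lots). Among the named classes, steroidogenic-like cells followed at 279 ± 38.6 CPM and epithelial-like cells at 150.4 ± 6.47. Unnamed cluster 12, at 310.4 ± 50.6 CPM, lay between the first 2 and overlapped both. Endothelial-like cells were at 129.9 ± 22.4 CPM, and their range over the lots overlapped that of epithelial-like cells. Pre-granulosa-like cells were at 54.6, 51.4 and 58.0 CPM, below each lot of the stromal-like and epithelial-like cells. The stromal-like, steroidogenic-like and epithelial-like ranges did not overlap each other, whereas cluster 17 (43.8 ± 29.2), Sertoli-like (39.1 ± 12.2), red-blood-cell-like (22.7 ± 18.5) and germ-like cells (22.2 ± 8.46) overlapped their neighbours in this order.

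Thinning of each cell to 4000 UMIs allows shares of cells to be compared, and it left out 835 cells. A Nr2f2 UMI was found in 73.5% ± 2.26 of thinned stromal-like cells, 66.1% ± 7.73 of steroidogenic-like, 39.4% ± 1.5 of epithelial-like, 34.4% ± 3.54 of endothelial-like and 17.4% ± 0.857 of pre-granulosa-like cells. Unthinned, the shares were 90.5% ± 2.15, 85.3% ± 4.67, 71.2% ± 3.21, 66.8% ± 2.89 and 36.7% ± 5.13. Red-blood-cell-like cells, which should lack the gene, had a UMI in 7.28% ± 5.63 of thinned and 10.7% ± 2.71 of all cells, at median depths of 7490.5, 10422 and 12097 UMIs, against 9455, 7783 and 10031 in stromal-like cells. Germ-like (6.69% ± 2.94) and cluster 17 cells (7.06% ± 1.73) had thinned shares similar to that of the red-blood-cell-like cells. The latter class had a UMI in 8 of 78 cells before thinning. Transcripts of the red blood cell list, globins among them, took 377073 to 505502 CPM there. The comparison therefore cannot decide whether the other classes exceed a background. Most counts came from the stroma, as 50.5% of all Nr2f2 UMIs were in stromal-like cells, 26.9% in epithelial-like and 13.7% in pre-granulosa-like cells.

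Nr2f1, the paralog of Nr2f2, was at a lower level and was more strongly weighted to the stroma. It was at 63.5, 89.1 and 75.5 CPM in stromal-like cells of lots 26, 29 and 30 (mean 76.1 ± 12.8), and 57.7% of its UMIs were there. At a clustering resolution of 0.4, which draws the stromal-like class differently, the mean was 115 CPM. The unnamed clusters came next, at 54.9 ± 8.58 CPM in cluster 11, 51.4 ± 11.1 in cluster 18 and 47.5 ± 19.4 in cluster 12, with ranges that overlapped from each to the next. Steroidogenic-like (22.7 ± 4.95), epithelial-like (19.0 ± 3.30) and endothelial-like cells (17.1 ± 4.65) formed a lower tier, again with overlapping ranges. Pre-granulosa-like cells were at 4.57, 5.62 and 6.33 CPM, the lowest of the classes with any UMI. No Nr2f1 UMI was found in 78 red-blood-cell-like cells, which allows up to 3.50 CPM and up to 3.85% of cells with a UMI (counting error only, and no limit on cells that express the gene). A Nr2f1 UMI was found in 20.8% ± 1.33 of thinned stromal-like cells (34.3% ± 1.54 unthinned), and in 1.96% ± 0.197 of thinned pre-granulosa-like cells (5.23% ± 1.2 unthinned).

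The question for the somatic classes was whether these levels differ beyond the spread between lots. UMI sums of 8 classes, cluster 17 among them, in 3 lots were fitted together, and 13688 genes, all 6 receptor genes among them, passed the filter on low counts. Stromal-like cells had higher Nr2f2 and Nr2f1 than both other large classes, and epithelial-like cells had higher levels of both than pre-granulosa-like cells. Nr2f2 was 6.46-fold higher in stromal-like than in pre-granulosa-like cells (log2 fold change 2.69, SE 0.21, adjusted p = 5.3e-11, edgeR's quasi-likelihood test) and 2.40-fold higher than in epithelial-like cells (1.26, SE 0.20, adjusted p = 1.7e-05). Nr2f1 was 12.8-fold higher in stromal-like than in pre-granulosa-like cells (log2 fold change 3.68, SE 0.17, adjusted p = 1.7e-14, edgeR) and 3.78-fold higher than in epithelial-like cells (1.92, SE 0.16, adjusted p = 1.1e-09). Between epithelial-like and pre-granulosa-like cells, the log2 fold changes were 1.76 (SE 0.17, adjusted p = 7.9e-09, edgeR) for Nr2f1 and 1.43 (SE 0.20, adjusted p = 2.1e-06) for Nr2f2. Each of these differences was seen in 3 of 3 lots with no overlap of the ranges. The p-values measure the spread between 3 lots of classes that were themselves built from the same cells.

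Of the 6 genes, 4 were higher in stromal-like than in pre-granulosa-like cells (Nr2f1, Nr2f2, Nr3c1 and Esr2) and none was lower, where 24.0% of all genes tested were higher and 24.5% lower. Against epithelial-like cells the same 4 were higher in stromal-like cells and Pgr was lower, with 16.2% and 14.5% of all genes. Epithelial-like cells exceeded pre-granulosa-like cells in Nr2f1, Nr2f2 and Pgr and were below them in Nr3c1, with 21.7% and 22.9% of all genes higher and lower. The 6 genes, and the related lists below, were chosen with earlier results of these data known. Their counts beside all genes are therefore not independent of the data. The cell cycle moves with both comparisons against pre-granulosa-like cells: 8 of 8 G2/M genes were higher in stromal-like and in epithelial-like than in pre-granulosa-like cells, and its part in the result was not tested at the level of classes.

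**Figure D2:**
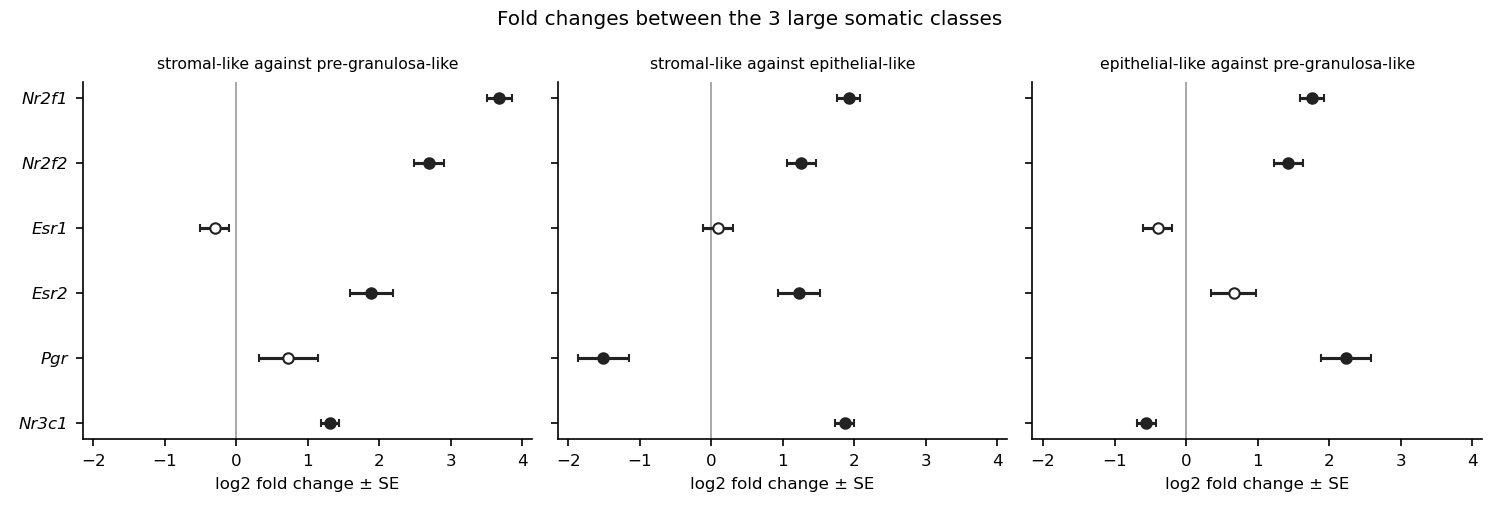
Log2 fold change ± SE (x axes) of the 6 genes in the 3 comparisons of the large somatic classes, with filled points where the adjusted p was under 0.05. Nr2f1 and Nr2f2 lie to the right of 0 in all 3 panels, Nr3c1 lies to the right of 0 in the stromal-like comparisons and to the left in the epithelial-like one, and Esr1 stays near 0.

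Nr3c1 (ENSMUSG00000024431, chromosome 18, 39410545 to 39519421, minus strand) had a pattern of its own. Its product binds glucocorticoids and is found in many cell types. Germ-like cells were at 53.6, 50.1 and 56.5 CPM (mean 53.4 ± 3.2) and the cells of cluster 17 at 48.1 ± 8.72, with overlapping ranges. Stromal-like cells were at 36.0, 34.8 and 38.4 CPM, below each lot of the germ-like cells and of cluster 17. Endothelial-like (23.9 ± 7.93) and steroidogenic-like cells (18.8 ± 3.89) overlapped each other. Pre-granulosa-like cells were at 13.7, 13.5 and 13.5 CPM, and epithelial-like cells were lowest among the large classes at 11.1, 8.95 and 8.37 CPM. Nr3c1 was thus 3.65-fold higher in stromal-like than in epithelial-like cells (log2 fold change 1.87, SE 0.13, adjusted p = 2.3e-11, edgeR) and 2.49-fold higher than in pre-granulosa-like cells (1.31, SE 0.13, adjusted p = 2.3e-09). Epithelial-like cells were below pre-granulosa-like cells by 0.56 ± 0.13 (SE) on the log2 scale (fold change -0.56, adjusted p = 0.0011, edgeR), the reverse of the order for both COUP-TFs, and without lot 30 this difference did not pass (-0.46, adjusted p = 0.070). Nr3c1 was detected in 62.4% ± 6.6 of germ-like cells before and 19.2% ± 4.49 after thinning. Thinned red-blood-cell-like cells had none, and the thinned shares were 13.5% ± 0.905 in stromal-like, 5.61% ± 0.0152 in pre-granulosa-like and 3.61% ± 1.2 in epithelial-like cells. Germ-like cells were the deepest, with medians of 18134 to 23767 UMIs.

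Esr1 was counted at low and similar levels in the 3 large somatic classes. It was at 12.1, 9.87 and 10.2 CPM in pre-granulosa-like cells (mean 10.7 ± 1.21), 10.4, 9.03 and 8.67 in stromal-like cells (9.38 ± 0.933) and 10.99, 5.94 and 8.15 in epithelial-like cells (8.36 ± 2.53), with overlapping ranges. No difference passed the test: the log2 fold change was -0.30 (SE 0.20, adjusted p = 0.24, edgeR) for stromal-like against pre-granulosa-like cells, -0.39 (SE 0.20, adjusted p = 0.12) for epithelial-like against pre-granulosa-like cells and 0.09 (SE 0.21, adjusted p = 0.78) for stromal-like against epithelial-like cells. The lots deviated together, and with the lot as a block the first 2 passed, at -0.31 (adjusted p = 0.022) and -0.40 (adjusted p = 0.0034), with pre-granulosa-like cells higher in 3 of 3 lots for both. An Esr1 UMI was found in 3.93% ± 0.299 of thinned pre-granulosa-like, 3.74% ± 0.470 of stromal-like and 3.13% ± 0.912 of epithelial-like cells (unthinned, 10.1%, 8.42% and 11.1%), against 1.52% ± 2.62 of red-blood-cell-like cells, where it rests on 1 UMI. Endothelial-like (2.48 ± 0.438 CPM), germ-like (1.76 ± 0.766) and Sertoli-like cells (1.60 ± 1.90) were, with the red blood cells, the lowest of the named classes.

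The highest Esr1 level was in unnamed cluster 12, at 51.9, 36.9 and 49.0 CPM (mean 45.9 ± 7.97), with no overlap with any other class. It came from 110 UMIs in 90 of 732 cells. The same shallow cells were also high in Nr3c1 (56.1 ± 11.2 CPM) and Nr2f2 (310.4 ± 50.6), and in Nrip1, a corepressor of nuclear receptors (319 ± 37.3, the highest of 12 classes). They carried both the pre-granulosa list (2190 to 2656 CPM summed over 8 markers) and the stromal list (1318 to 1860 CPM). This cluster was not part of any test, and the part of the low depth in these levels was not tested.

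Esr2 was scarce. Steroidogenic-like cells were highest among the named classes at 5.19, 5.94 and 3.12 CPM (mean 4.75 ± 1.46, 24 UMIs), followed by stromal-like cells at 2.57, 1.81 and 1.96 CPM (2.11 ± 0.404, 146 UMIs), and the ranges did not overlap, although the lot 30 value of steroidogenic-like cells rests on 1 UMI in 32 cells. Y-linked transcripts were found in 65.1% to 78.1% of these steroidogenic-like cells over the lots. Epithelial-like (0.848 ± 0.201, 81 UMIs) and pre-granulosa-like cells (0.539 ± 0.181, 66 UMIs) overlapped each other. Stromal-like cells exceeded pre-granulosa-like cells 3.70-fold (log2 fold change 1.89, SE 0.30, adjusted p = 1.2e-05, edgeR) and epithelial-like cells 2.33-fold (1.22, SE 0.29, adjusted p = 0.0023). Epithelial-like against pre-granulosa-like cells did not pass (log2 fold change 0.66, SE 0.32, adjusted p = 0.095, edgeR) but did with the lot as a block (0.71, adjusted p = 0.035). Unnamed cluster 12 had 3.77 ± 4.43 CPM from 11 UMIs, 7 of them in 1 cell. No UMI was found in Sertoli-like cells, which allows up to 0.567 CPM, or in cluster 17 (up to 1.52 CPM). After thinning, an Esr2 UMI was found in 1.05% ± 1.2 of steroidogenic-like and 0.809% ± 0.223 of stromal-like cells, so levels inside single cells were at the limit of this depth.

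Pgr was as scarce and had yet another distribution. It was at 3.39, 2.34 and 2.42 CPM in germ-like cells (mean 2.71 ± 0.583, 101 UMIs) and at 1.77, 1.28 and 1.60 CPM in epithelial-like cells (1.55 ± 0.249, 146 UMIs), with no overlap. Stromal-like (0.569 ± 0.255, 39 UMIs) and pre-granulosa-like cells (0.326 ± 0.152, 40 UMIs) were lower and overlapped each other. Epithelial-like cells exceeded pre-granulosa-like cells 4.70-fold (log2 fold change 2.23, SE 0.35, adjusted p = 3.0e-05, edgeR), and stromal-like cells were below epithelial-like cells (log2 fold change -1.51, SE 0.36, adjusted p = 0.0026), which did not hold without lot 30 (-1.21, adjusted p = 0.063). Stromal-like against pre-granulosa-like cells did not pass (log2 fold change 0.73, SE 0.41, adjusted p = 0.16, edgeR). Steroidogenic-like and Sertoli-like cells had no Pgr UMI, which allows up to 0.680 and 0.567 CPM. With 43.1% of its UMIs in epithelial-like cells and 29.8% in germ-like cells, Pgr had the smallest stromal-like share of the 6 genes (11.5%).

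Germ-like cells were compared with the mean of the 3 large somatic classes on the log scale. They were higher in Nr3c1, 3.11-fold (log2 fold change 1.64, SE 0.10, adjusted p = 9.9e-14, edgeR), and in Pgr, 4.09-fold (2.03, SE 0.28, adjusted p = 1.6e-06). Pgr had passed the filter on low counts only through the germ-like sums, so its call here is no independent support. Germ-like cells were lower in Nr2f2 (log2 fold change -2.74, SE 0.20), Esr1 (-2.33, SE 0.24), Esr2 (-2.31, SE 0.45) and Nr2f1 (-0.98, SE 0.16), with adjusted p of at most 7.2e-05 by edgeR. All 6 genes were thus called, in a comparison in which 77.0% of all genes tested were. For Nr2f1 the mean hides an order, since germ-like cells (10.3 ± 1.04 CPM) were above pre-granulosa-like and below stromal-like and epithelial-like cells in 3 of 3 lots. Scrublet called 8.90% to 15.8% of germ-like cells doublets.

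Endothelial-like cells, a remnant after depletion with CD31, were below stromal-like cells in 5 of the 6 genes, where 35.0% of all genes were called in either direction. The log2 fold changes were -2.15 (SE 0.22, adjusted p = 2.1e-08, edgeR) for Nr2f1, -1.48 (SE 0.21, adjusted p = 3.4e-06) for Nr2f2, -1.91 (SE 0.41, adjusted p = 0.00065) for Esr1 and -0.47 (SE 0.16, adjusted p = 0.026) for Nr3c1. The Nr3c1 difference did not pass without lot 29 (-0.33, adjusted p = 0.19) or without lot 30 (-0.39, adjusted p = 0.21). For Esr2 the endothelial-like cells held 1 UMI against 146, a ratio of 0.0786 with an exact 95% counting interval of 0.00198 to 0.445, and the call (adjusted p = 0.0031, edgeR) was lost without lot 26 (adjusted p = 0.16). Pgr had 2 UMIs there against 39 in stromal-like cells, a ratio of 0.588 (0.0688 to 2.27), and was not called (adjusted p = 0.65, edgeR). Y-linked transcripts were found in 8.62%, 34.1% and 2.30% of endothelial-like cells of lots 26, 29 and 30. Scrublet called 16.7%, 11.4% and 21.8% of them doublets in these lots, against 0.789%, 0.537% and 1.35% of pre-granulosa-like cells. These doublets were retained in the fits.

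Against pre-granulosa-like cells, endothelial-like cells were higher in Nr2f1 (log2 fold change 1.53, SE 0.25, adjusted p = 1.7e-05, edgeR), Nr2f2 (1.21, SE 0.21, adjusted p = 3.3e-05) and Nr3c1 (0.85, SE 0.17, adjusted p = 0.00015), and lower in Esr1 (-2.21, SE 0.40, adjusted p = 5.5e-05), beside 48.6% of all genes called. Without lot 26 the Nr3c1 difference was 0.51 (adjusted p = 0.080). Against epithelial-like cells, the COUP-TFs did not pass, at -0.23 (SE 0.23, adjusted p = 0.47, edgeR) for Nr2f1 and -0.22 (SE 0.21, adjusted p = 0.44) for Nr2f2. Nr3c1 was higher (1.40, SE 0.17, adjusted p = 2.8e-07) and Esr1 lower (-1.82, SE 0.42, adjusted p = 0.00099), the latter not without lot 26 (-1.38, adjusted p = 0.066). Pgr, with 2 UMIs against 146 (ratio 0.215, exact 95% counting interval 0.0258 to 0.790), stood at the threshold (adjusted p = 0.0499, edgeR) and was not called without any 1 of the lots (adjusted p = 0.066 to 0.24). In this comparison 38.6% of all genes were called.

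The cells of cluster 17, 21 to 68 per lot, were higher than the mean of the 3 large somatic classes in Nr3c1, 2.88-fold (log2 fold change 1.52, SE 0.18, adjusted p = 2.1e-07, edgeR). They were lower in Nr2f2 (-1.57, SE 0.24, adjusted p = 8.7e-06) and Nr2f1 (-1.21, SE 0.37, adjusted p = 0.014), the latter not without lot 30 (-1.04, adjusted p = 0.14). Esr1, from 8 UMIs, did not pass (-1.23, SE 0.52, adjusted p = 0.073) but did with the lot as a block (-1.28, adjusted p = 0.043). Of all genes, 34.4% were called, 2468 higher and 2245 lower, a split that DESeq2's size factors moved to 3242 and 1639. The absence of Esr2 and Pgr UMIs gave no fold, as the floor for these cells (1.52 CPM) lies near or above the somatic levels. Y-linked transcripts were found in up to 19.0% of these cells (lot 29).

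Within the large classes, the COUP-TFs varied by cluster. The 4 stromal-like clusters all contained high Nr2f2, from 301 ± 22.2 CPM in cluster 2 (Myh8 and Sparcl1 among its leading genes) through 394 ± 43.6 in cluster 5 (Itga8 and Neil3) and 413 ± 40.4 in cluster 13 (Dkk2, Foxd1 and Nefm) to 613 ± 25.96 in cluster 9 (Lum, Ntrk2 and Inhba). Nr2f1 spread over a wider range, at 21.5 ± 2.32 CPM in cluster 2, 68.8 ± 1.11 in cluster 5, 181 ± 54.1 in cluster 13 and 202 ± 37.0 in cluster 9. In lots 26, 29 and 30, cluster 9 was at 160.2, 214 and 231 CPM and cluster 13 at 125, 234 and 183, each above every lot of clusters 2 and 5. Cluster 9 also had the highest Nr3c1 (68.8 ± 4.44 CPM) and Esr1 (31.2 ± 5.76 CPM, against 5.97 to 10.3 in the other stromal-like clusters). Esr2 ran the other way, with 2.80 ± 1.11 CPM in cluster 2 and 2.24 ± 0.480 in cluster 5, against 0.708 ± 0.107 in cluster 9 and 0.541 ± 0.678 in cluster 13. G2/M transcripts summed to 4079 CPM in cluster 5 and to 215 to 258 CPM in clusters 2, 9 and 13, and the part of the cell cycle in these levels was not tested. These are descriptions of clusters built from the same cells, with no test.

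Cluster 10, led by Pappa2, Upk1b and Krt19, stood apart among the epithelial-like clusters. It had 333, 292 and 331 CPM of Nr2f2 in lots 26, 29 and 30 (mean 319 ± 22.9), against 87.8 ± 8.66 in cluster 4 (Tm4sf5, 1700026D08Rik and Upk3b), 132 ± 4.10 in cluster 8 (Cdkn3, Psrc1 and Cdc25c) and 159.9 ± 14.8 in cluster 6 (histone genes). It was also the highest of the 4 in Nr2f1 (34.9 ± 1.65 CPM), Nr3c1 (20.2 ± 2.56), Esr1 (13.9 ± 2.52) and Pgr (3.82 ± 1.39, 38 UMIs in 1024 cells). Its Nr2f2 level thus lay within the range of the stromal-like clusters. The G2/M sum was 216 CPM in cluster 10 and 171 CPM in cluster 4, and 3025 and 3876 CPM in clusters 6 and 8. Among pre-granulosa-like clusters, cluster 1, with Sprr2d and Gm10638 among its leading genes, had 26.4 ± 2.79 CPM of Nr3c1, against 7.497 ± 1.22 in cluster 0 and 11.6 ± 0.723 in cluster 3, with no overlap between the lots. Nr2f2 was highest of these in cluster 0 (65.9 ± 2.14 CPM), led by 2210407C18Rik, Bmp2 and Fam129a, and Nr2f1 was between 4.76 and 6.16 CPM in all of them.

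**Figure D3:**
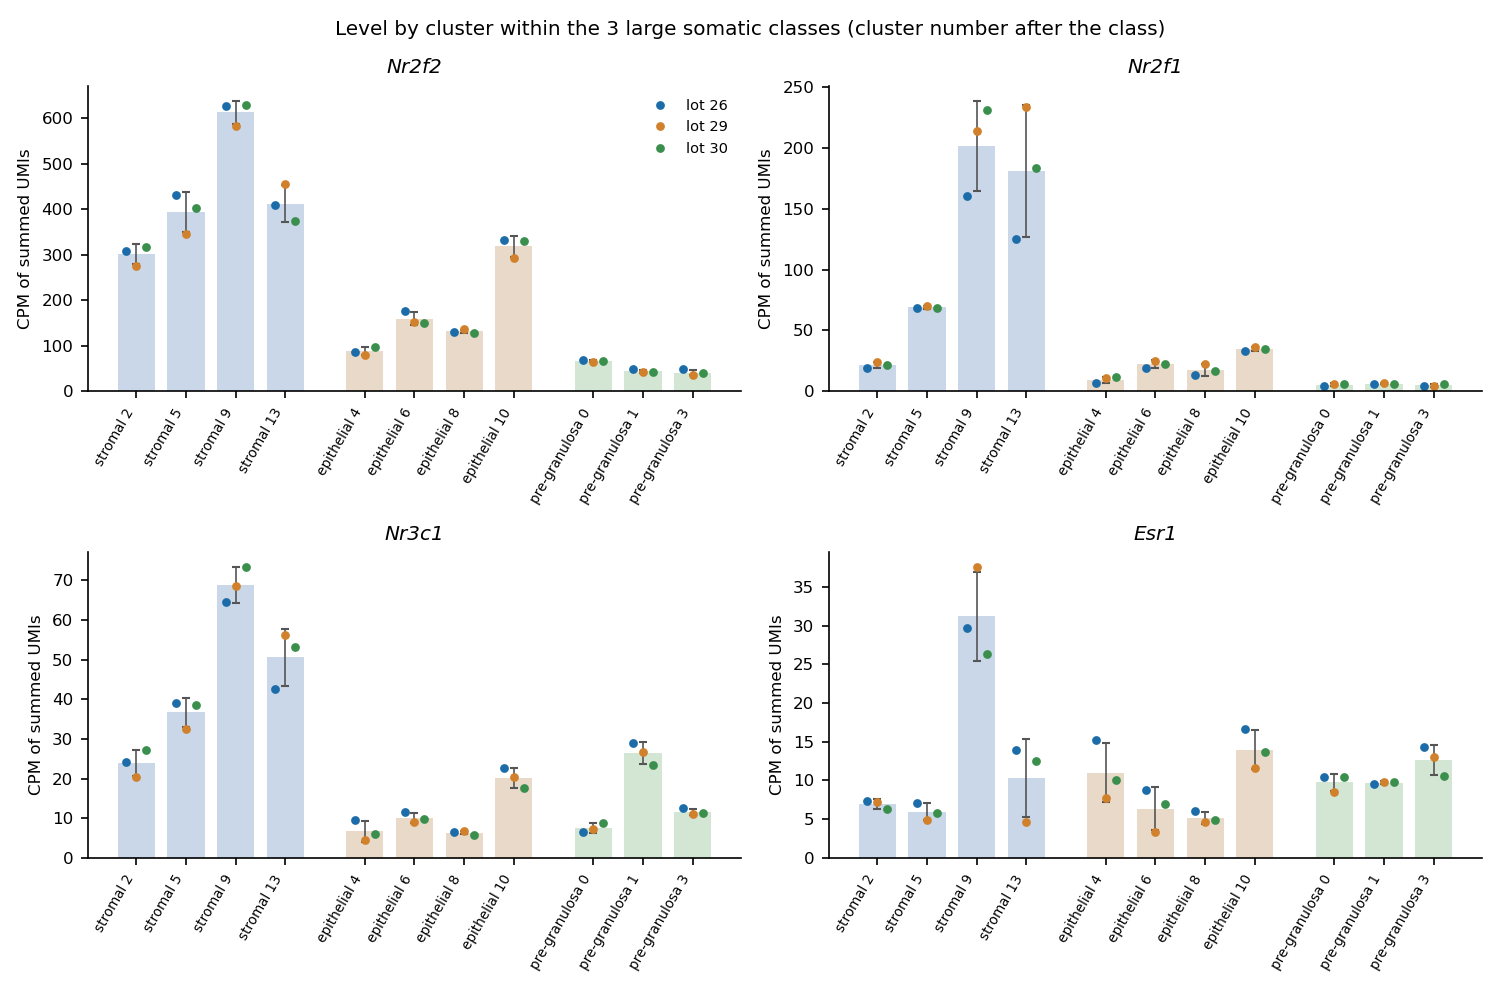
CPM of summed UMIs (linear y axes from 0) of 4 receptor genes in the 11 clusters of the stromal-like, epithelial-like and pre-granulosa-like classes, with 1 point per lot, bars for the mean over 3 lots and error bars for the SD. Cluster 9 of the stroma and cluster 10 of the epithelium are the highest of their class for Nr2f2, Nr2f1, Nr3c1 and Esr1, and cluster 1 is the highest pre-granulosa cluster for Nr3c1.

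Both COUP-TFs were found together in the same stromal-like cells. After thinning, Nr2f2 had a UMI in 86.0%, 80.9% and 80.04% of stromal-like cells with a Nr2f1 UMI (422, 388 and 476 cells in lots 26, 29 and 30), against 73.5%, 68.7% and 71.4% of those without. Nr3c1 was found in 20.4% ± 2.06 of the cells with a Nr2f1 UMI and 11.7% ± 0.727 of those without, and Esr1 in 6.08% ± 0.626 and 3.12% ± 0.482. The share was larger beside Nr2f1 in 3 of 3 lots for each of these genes. Esr2 went the other way in 3 of 3 lots, at 0.375% ± 0.221 with and 0.919% ± 0.290 without a Nr2f1 UMI. The former rests on 1, 1 and 3 cells in lots 26, 29 and 30. In epithelial-like cells, Nr2f2 was found in 51.7% ± 4.52 of cells with and 38.6% ± 1.92 of cells without a Nr2f1 UMI. For pre-granulosa-like cells the same shares came to 16.7% ± 2.02 and 17.5% ± 0.869, so no such gap was seen there at this depth. Germ-like cells, low in Nr2f2, had 24.5% ± 14.1 and 5.84% ± 2.64, with the gap in 3 of 3 lots. Scrublet called 5.46% to 10.1% of stromal-like and 8.90% to 15.8% of germ-like cells doublets. These were retained, and their part in the gaps was not tested. Clusters 9 and 13, high in Nr2f1, were also high in Nr3c1, and the shares were not computed within clusters.

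**Figure D4:**
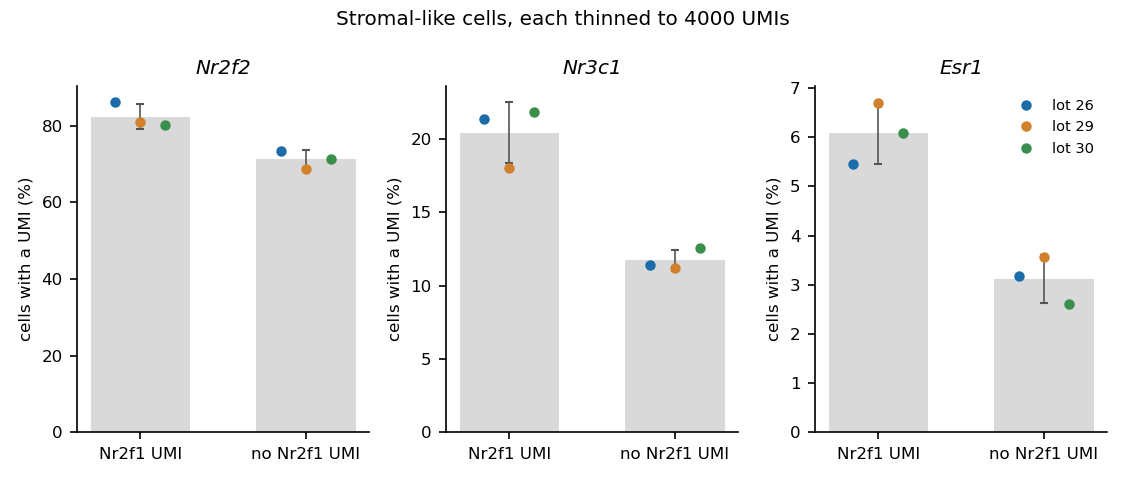
Percent of thinned stromal-like cells with a UMI of Nr2f2, Nr3c1 or Esr1 (linear y axes from 0), for cells with and without a Nr2f1 UMI, with 1 point per lot, bars for the mean over 3 lots and error bars for the SD. For each gene, all 3 lots are higher among cells with a Nr2f1 UMI.

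The genes most like each receptor were sought by Pearson's r of log2(CPM + 1) over the 24 sums of 8 classes and 3 lots, among 8938 genes of at least 20 CPM in a class. The sums share lots, and differ in depth, so r is given as a description. Nr2f2 was closest to Ghr, the growth hormone receptor (r = 0.960), Mfap2, a microfibril protein (0.951), and Cald1, the actin-binding caldesmon (0.9498). Nr2f1 was closest to Cd55, a complement regulator (0.918), Mylk, a myosin light chain kinase (0.916), and Mxra7 (0.916), all highest or near highest in stromal-like cells. Esr2 was closest to Kcnk3, a potassium channel (0.871), Tbx2, a T-box transcription factor (0.859), and Ppp1r14a, a myosin phosphatase inhibitor (0.856). These were at 37.3, 199 and 273 CPM in steroidogenic-like and 20.1, 117 and 148 CPM in stromal-like cells. Nr3c1 was closest to Plcl2 (0.974), Dnajc13 (0.957) and Crlf2 (0.95), and Pgr to Spdya (0.880), Ooep (0.869) and Rundc3b (0.854), all highest in germ-like cells. Esr1 was closest to Sema5b, a semaphorin (0.927), A230065H16Rik (0.915) and Bnc2, a zinc-finger protein (0.908). Between the receptors themselves, r was 0.783 for Nr2f1 and Nr2f2, 0.687 for Nr2f2 and Esr2, and -0.17 for Esr2 and Pgr.

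Partners and targets of the COUP-TFs were taken as a list of 6 genes, all tested. In stromal-like against pre-granulosa-like cells, 4 were higher and 2 (Zfpm1 and Bcl11b) lower, beside 24.0% and 24.5% of all genes. The median log2 fold change was 1.19 against -4.0e-05 over all genes. Against epithelial-like cells, 3 were higher in stromal-like cells and none lower, beside 16.2% and 14.5% of all genes. Epithelial-like cells exceeded pre-granulosa-like cells in 2 and were below them in none, beside 21.7% and 22.9% of all genes. Zfpm2, which encodes the cofactor FOG2 known to bind both GATA4 and COUP-TFII, reached 65.3 ± 7.12 CPM in the stroma and was higher there than in pre-granulosa-like (log2 fold change 0.94, SE 0.15, adjusted p = 9.8e-06, edgeR) and epithelial-like cells (1.13, SE 0.15, adjusted p = 1.4e-06). Nrp1, a co-receptor of vascular endothelial growth factor, was higher in stromal-like cells by 1.45 and 1.37 against the same classes, with 267 ± 76.0 CPM in the endothelial-like class. Bcl11a, a zinc-finger partner also known as CTIP1, was higher than in pre-granulosa-like cells in both stromal-like (1.48) and epithelial-like cells (1.23). Angpt1, an angiopoietin, was higher in stromal-like cells in both comparisons too.

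Of 43 other nuclear receptors, 35 were tested. Against pre-granulosa-like cells, 8 were higher in stromal-like cells and 12 lower (9 and 9 with library sizes alone), beside the 24.0% and 24.5% of all genes, and the median log2 fold change of -0.02 was close to that of all genes. Thra, the thyroid hormone receptor alpha, reached 142 ± 12.6 CPM in the stroma and was higher there than in pre-granulosa-like (1.22, SE 0.14, adjusted p = 3.1e-08, edgeR) and epithelial-like cells (0.86, SE 0.14, adjusted p = 1.3e-05). The retinoic acid receptors Rarb and Rarg were higher in stromal-like cells in both comparisons, and Rara in the one with epithelial-like cells (0.75, SE 0.12, adjusted p = 1.1e-05, edgeR). Nr0b1 (DAX1), a receptor of the gonadal and adrenal programme, was at 39.3 ± 5.27 CPM in pre-granulosa-like and 12.05 ± 0.783 in stromal-like cells (log2 fold change -1.81, SE 0.17, adjusted p = 2.0e-09, edgeR), and Nr5a1 (SF1) at 78.1 ± 10.3 and 32.4 ± 5.99 (-1.37, SE 0.18, adjusted p = 5.5e-07). Nr0b1 was highest in unnamed cluster 11, at 113 ± 18.3 CPM. Nr3c2, the mineralocorticoid receptor, was at most at 2.93 ± 0.472 CPM in any named class, in germ-like cells.

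Among 16 chaperones and coregulators, all tested, 4 were higher and 2 lower in stromal-like than in pre-granulosa-like cells, where 24.0% and 24.5% of all genes were, with a median log2 fold change of -0.14. Against epithelial-like cells 3 were higher and 5 lower, beside 16.2% and 14.5% of all genes, with a median of -0.01. The 5 lower genes all belong to the HSP90 machinery (Hsp90aa1, Hsp90ab1, Fkbp4, Fkbp5 and Stip1). This machinery keeps steroid receptors able to bind their ligands, although Fkbp5 limits the glucocorticoid receptor. Ptges3, another co-chaperone of the list, was not called (-0.34, SE 0.17, adjusted p = 0.14, edgeR). With library sizes alone in place of TMM factors, 2 of the 16 were lower. Hsp90aa1 was at 629 ± 216 CPM in stromal-like, 1056 ± 287 in epithelial-like and 3013 ± 284 in germ-like cells. Among the named classes, Nr3c1 was highest in germ-like cells too. Between stromal-like and epithelial-like cells, however, Nr3c1 was higher in the former and Hsp90aa1 lower. Any relation between these genes was not tested. Nrip1 was lower in epithelial-like cells than in both other classes, by 0.77 (log2 fold change -0.77, SE 0.16, adjusted p = 0.00041, edgeR) against pre-granulosa-like cells.

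Of 8 glucocorticoid-responsive genes tested, 1 was higher and 2 were lower in stromal-like than in pre-granulosa-like cells, beside 24.0% and 24.5% of all genes, with a median log2 fold change of -0.40. Against epithelial-like cells 2 were higher and 2 lower, beside 16.2% and 14.5%, with a median of 0.06. Tsc22d3 (GILZ), a classic target, had the order of the receptor, at 30.8 ± 3.00, 16.9 ± 2.72 and 12.6 ± 1.54 CPM in stromal-like, pre-granulosa-like and epithelial-like cells, and passed all 3 comparisons (adjusted p by edgeR of 0.00011 for stromal-like and 0.015 for epithelial-like against pre-granulosa-like cells, and 4.2e-07 between stromal-like and epithelial-like cells). Fkbp5, a chaperone that limits the receptor and is itself induced by it, had the opposite order between stromal-like and pre-granulosa-like cells (-0.64, SE 0.12, adjusted p = 0.00011, edgeR), as did Errfi1 (-1.23, SE 0.17, adjusted p = 8.0e-07). Sgk1 reached 80.2 ± 38.6 CPM in endothelial-like cells and was lower in epithelial-like cells than in stromal-like and pre-granulosa-like cells.

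Enzymes that make or inactivate steroid ligands were mostly near 0, and 3 of 7 were tested. Cyp19a1, the aromatase that makes estrogen, was at most at 0.283 CPM in any named class or cluster 17, and Hsd11b1, which regenerates active glucocorticoid, at most at 3.10 CPM, in cluster 17. Hsd11b2, which inactivates glucocorticoids, was at 320 ± 84.9 CPM in steroidogenic-like cells and at 59.5 ± 18.5, 9.66 ± 4.01 and 2.15 ± 0.371 CPM in stromal-like, epithelial-like and pre-granulosa-like cells. It was higher in stromal-like than in pre-granulosa-like cells by 4.70 on the log2 scale (SE 0.33, adjusted p = 8.2e-12, edgeR) and than in epithelial-like cells by 2.56 (SE 0.29, adjusted p = 1.2e-07), as Nr3c1 was. It was also higher in epithelial-like than in pre-granulosa-like cells (2.14, SE 0.33, adjusted p = 7.9e-06, edgeR), where Nr3c1 was lower.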

How the data were processed

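Each of the 3 lots is 1 sample, a suspension of E12.5 ovarian cells. According to the study's methods and the submitters' processing notes, barcodes were selected with UMI-tools, reads were aligned by STAR 2.7 to GRCm38, only unique alignments were retained, and featureCounts 2.0.1 assigned them to genes. The authors deposited raw UMI counts per gene and barcode, with no normalization. Annotation release and strand setting are not given in the sources used here.

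Barcodes with 200 to 9000 genes and at most 10% mitochondrial UMIs were retained. Clustering used Seurat 5.3.0 (2000 variable genes less held-out ones, 50 principal components, resolution 0.8), and clusters were named from 12 lists of 8 markers (score of at least 1, lead of 0.25, 3 raised markers). A name was withheld where the leading genes favoured another list, or where shallow cells had no leading gene in the list. Scrublet (scanpy 1.11.5, expected rate 8%) called doublets, which were retained. Named classes with 10 or more cells per lot, Sertoli-like excepted, and cluster 17 (whose best list was the macrophage one) gave 24 sums of 184947 to 54213542 UMIs. These were tested by the quasi-likelihood method of edgeR 4.0.16, with TMM factors, filterByExpr and Benjamini-Hochberg adjustment over all genes (threshold 0.05). It was checked on simulated data that had no lot effect, so the check did not cover sums that deviate together within a lot. SE is the log2 fold change divided by the root of F. Classes of a lot come from the same pool and are paired by construction. In 84 pairs of same-lot sums, the median correlation of deviations from class means was 0.133, and 53 pairs were over 0.1. The design has no lot term. Alternatives were a lot block, DESeq2 1.42.0, library sizes without TMM, no filter, the 3 large classes only, each lot left out, doublets removed, thinning to 4000 UMIs, resolutions of 0.4 and 1.2, held-out genes put back and a stricter cell filter (1000 genes, 5% mitochondrial UMIs). Named genes are the 6 receptors, any member of the related lists (first up to 4 per list, of at least 20 CPM and with the largest fold changes), the 3 genes most like each receptor and the 3 leading genes of a cluster. Some genes that this rule names are not reported here. The members and lists were chosen with earlier results of these data known. Intervals and floors (3 UMIs over the lots) cover counting error only.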

Additional observations from a re-analysis of the deposited data

How the results depend on the processing

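Of 594 fold changes of the 6 genes recomputed under the alternatives, 564 kept their direction and their side of the threshold, 18 kept their direction and lost the call, 8 gained it and 4 changed sign, none of the latter called in either form. Those 4 were Esr1 in stromal-like against epithelial-like cells, at -0.062 to 0.23 with 1 lot left out, and Pgr in endothelial-like against pre-granulosa-like cells (2 UMIs), at -0.11 with no filter, -0.015 with the lot as a replicate block and -0.90 to 0.50 with 1 lot left out. The block otherwise moved calls only for Esr1, at -0.31 and -0.40 for stromal-like and epithelial-like against pre-granulosa-like cells and -1.28 for cluster 17, and for Esr2, at 0.71 for epithelial-like against pre-granulosa-like cells. The number of the 6 genes called fell from 5 to 3 in stromal-like against epithelial-like cells after thinning, at resolution 1.2 and with held-out genes put back, and in endothelial-like against stromal-like cells after thinning and at resolution 1.2, with 4 of the 6 genes tested in each of these fits, and was 1 to 2 in place of 3 in endothelial-like against epithelial-like cells with 1 lot left out. Levels that moved by over 1 SD were, at resolution 0.4, those of stromal-like cells in Nr2f1 (115 CPM), Nr2f2 (448), Esr1 (10.5) and Nr3c1 (45.9), where 3381 cells, part of the stroma among them, formed a cluster named steroidogenic-like. At resolution 1.2 they were those of pre-granulosa-like cells in Nr2f1 (8.12) and Nr3c1 (14.0), and after thinning Nr2f2 (410.2), Esr1 (10.4) and Nr3c1 (38.3) in stromal-like, Esr2 (0.517) in epithelial-like and Nr3c1 (14.9) in pre-granulosa-like cells. Without TMM, the median of all genes in stromal-like against pre-granulosa-like cells moved to 0.11. At resolution 0.8 no cluster drew over 80% of its cells from 1 lot, so leaving such clusters out gave no value, but lot 30 gave 90.6% of a cluster of 2795 pre-granulosa-like cells at resolution 1.2 and 92.8% of one of 3100 with held-out genes put back. Depth limits Esr2 and Pgr, with 343 and 339 UMIs in all.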
